A study of Saccharomyces cerevisiae with 24 samples.

Results

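The comparison was the late step of the chromatin response of budding yeast (Saccharomyces cerevisiae) to cadmium: cells at 120 min after the metal was added against cells at 60 min. Every open reading frame (ORF) of the deposited promoter and gene body tables was used, 4427 of the 6575 ORFs with a value in any table of the series, and no measured value chose them. The 120 min group and the 60 min group each held 2 samples of chromatin digested with micrococcal nuclease (MNase), which makes 4 of the 24 samples of a time course that also had 0, 7.5, 15 and 30 min. Both groups were W303 cells of mating type MATa with the mutations ade2-1, can1-100, his3-11,15, leu2-3 with leu2-112, trp1-1 and ura3-1, grown in rich medium at 30 °C to an OD600 of 0.8 and then exposed to cadmium chloride at 1 mM. Genotype, medium and metal dose were therefore the same in both groups, and the length of exposure differed. Time in culture differed with it. No group at 60 or 120 min lacked cadmium, so exposure and time in culture cannot be told apart.

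MNase cuts DNA that proteins do not cover, so a short fragment from the region upstream of a gene marks DNA held by a transcription factor or another complex smaller than a nucleosome. Nucleosomes over a gene body usually sit in a regular array, and the entropy score of this array is higher where their positions are less regular, which is known to accompany heavy transcription. Cadmium binds thiol groups and damages proteins, and yeast cells answer with heat shock chaperones under the factor Hsf1, with general stress genes under Msn2 and Msn4, and with the sulfur pathway that makes glutathione.

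Each table held 1 column per time point, and no column named a replicate. The series text calls the 2 MNase samples of a time point technical replicates, but does not say whether a column stands for 1 of them or both. The differences below therefore have no replicate check and no p-value. For promoters the counting error alone could be computed, and the depth behind an entropy value is unknown. The promoter column held 1050068 fragments at 120 min and 938227 at 60 min, with a median of 228 and 202 fragments per ORF. In bulk chromatin, a large change in some cells and a small change in all of them cannot be told apart. The mating type label was set against marker transcripts: the MATa gene MFA1 stood at 219 and 265 TPM (transcript abundance per length, scaled to a fixed column total) at 120 and 60 min, and the alpha-factor gene MF(ALPHA)1 at 0.232 and 0.456 TPM. STE3, the receptor gene of the other mating type, was at 11.3 and 7.58 TPM.

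Few ORFs changed in chromatin between 60 and 120 min, and the heat shock genes HSP104, SSE1 and HSP82 stood among the highest in both measures. Promoter change was the log2 ratio of fragments after each column was divided by its median, with 0.1 added, and an absolute value of 0.5, or 1.41-fold, was used as the threshold. At 120 min, 14 promoters (0.316% of the 4427) were higher than at 60 min and 57 (1.29%) were lower. This split depends on the scaling, since the fragment columns as deposited, with a median shift of 0.14, gave 101 promoters higher and 19 lower. Gene body entropy was at least 0.2 higher in 47 ORFs (1.06%) and at least 0.2 lower in 22 (0.497%).

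The late step moved fewer promoters than any earlier one. In the steps that ended at 7.5, 15, 30 and 60 min, 116, 71, 65 and 69 promoters were higher (2.62%, 1.6%, 1.47% and 1.56%), and 46, 114, 65 and 32 were lower (1.04%, 2.58%, 1.47% and 0.723%). With these settings, falls outnumbered rises in the last step and in the step from 7.5 to 15 min. In the last step, 0.4 added in place of 0.1 gave 4 promoters higher and 4 lower. Entropy rises numbered 80, 129, 100 and 73 in those 4 earlier steps (1.81%, 2.91%, 2.26% and 1.65%), and entropy falls 179, 143, 44 and 22 (4.04%, 3.23%, 0.994% and 0.497%). The median entropy difference was -0.007 in the last step, with 45.2% of ORFs above 0, against 68.7% in the step from 30 to 60 min. Steps next to each other share a column, so their counts are not independent, and the depth of the promoter columns differed between steps: the root mean square counting error was 0.166 in the first step and 0.137 in the last. The part of depth in the counts of the steps was not tested.

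Counting error set a floor for the promoter values. Over all 4427 ORFs the log2 change had an SD of 0.190, and counting error alone gave a root mean square of 0.137, or 51.9% of the variance. Of the 14 promoters that were higher, 10 were past 3 counting errors, and so were 36 of the 57 that were lower. Both sets were thinly covered before cadmium, with a median of 75.5 fragments at 0 min for the promoters that were higher and 80 for those that were lower, against 151 for all ORFs. The 4 rises within 3 counting errors were those of QDR1, REI1, UTP4 and RRP4.

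**Figure D1:**
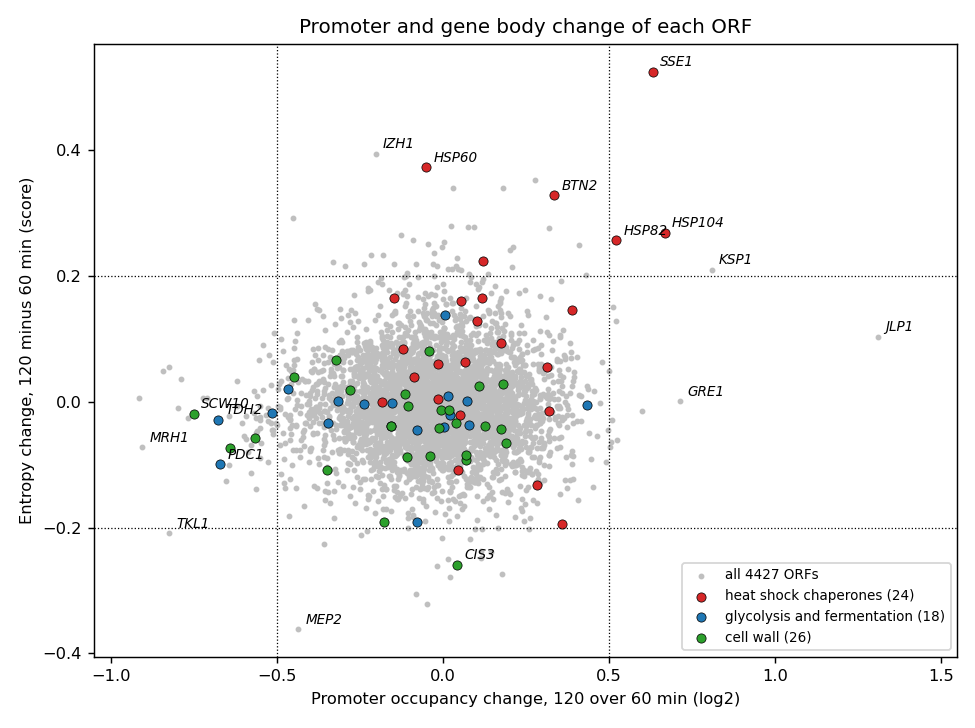
Promoter occupancy change (log2, x axis) against gene body entropy change (difference in the score, y axis), 120 over 60 min, 1 point per ORF, n = 4427, with dotted lines at the thresholds of 0.5 and 0.2 and 3 gene lists in colour. SSE1, HSP104, HSP82 and KSP1 lie past both thresholds at the upper right, TKL1 alone at the lower left, and 0 ORFs lie past both in the other corners.

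In 5 ORFs both measures passed the threshold, and in each both moved in the same direction. SSE1, HSP104, HSP82 and KSP1 rose in both, TKL1 fell in both, and 0 ORFs moved in opposite directions.

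SSE1 encodes the Hsp110 protein that recharges Hsp70 with ATP (YPL106C, chromosome XVI, 350194 to 352275, minus strand, R64). Its promoter held 184 fragments at 120 min and 98 at 60 min. On the scaled log2 measure this was a rise of 0.63 ± 0.15, the ± giving the counting error here and at every promoter value. Entropy over its body was 7.17 at 120 min and 6.65 at 60 min, and this rise of 0.53 was the highest of all 4427 ORFs. The promoter held 71, 115, 149, 65, 98 and 184 fragments at 0, 7.5, 15, 30, 60 and 120 min. The column medians at these times were 151, 138, 157, 173, 202 and 228 fragments. Counts listed from 0 to 120 min, here and below, are not divided by these medians. Entropy was 6.58, 7.12, 7.19, 6.17, 6.65 and 7.17 at the same times. The gene body was thus high at 7.5 and 15 min, lowest at 30 min and high again at 120 min. SSE1 RNA was 2528 TPM at 120 min and 1210 TPM at 60 min.

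HSP104 encodes the ring-shaped disaggregase that pulls proteins out of aggregates (YLL026W, chromosome XII, 88623 to 91349, plus strand, R64). With 410 fragments at 120 min and 221 at 60 min, its promoter rose by 0.67 ± 0.11 (log2). The 6 promoter counts were 120, 210, 267, 170, 221 and 410 fragments from 0 to 120 min, so the last column was the highest. Entropy stood at 7.06 at 120 min and 6.79 at 60 min. HSP104 RNA was 4050 TPM at 120 min, against 1188 TPM at 60 min, which made a change of 1.77 in log2(TPM + 1).

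HSP82 encodes the stress-induced Hsp90 (YPL240C, chromosome XVI, 96496 to 98625, minus strand, R64), and its promoter held 378 and 227 fragments at 120 and 60 min, a rise of 0.52 ± 0.11 (log2). Its gene body entropy was 7.23 and 6.97 at these times, and its RNA 2463 and 815 TPM. How reads shared with the near-identical paralog HSC82 were assigned is not stated. HSC82 itself had a promoter change of 0.05, an entropy change of -0.02 and an RNA change of 0.80.

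KSP1, a serine/threonine kinase gene (YHR082C, chromosome VIII, 268459 to 271548, minus strand, R64), is no chaperone gene. Its promoter, with an early and a late high, held 105, 163, 150, 93, 107 and 229 fragments from 0 to 120 min, and the log2 change in the last step was 0.81 ± 0.15. The early high of 163 fragments stood against a column median of 138, and the late high of 229 against a column median of 228. Entropy was 6.96 at 120 min and 6.75 at 60 min. Its RNA was 381 and 280 TPM at 120 and 60 min, and the log2 change of 0.44 did not reach the threshold of 1 used for RNA.

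TKL1 encodes the main transketolase of the pentose phosphate pathway (YPR074C, chromosome XVI, 692796 to 694838, minus strand, R64). Its promoter held 71 and 127 fragments at 120 and 60 min, and the log2 change was -0.82 ± 0.17. Entropy was 6.64 and 6.85 at these times, and RNA 144 and 341 TPM. The entropy of TKL1 had been 7.14 at 0 min, so its gene body was most regular in the last column.

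**Figure D2:**
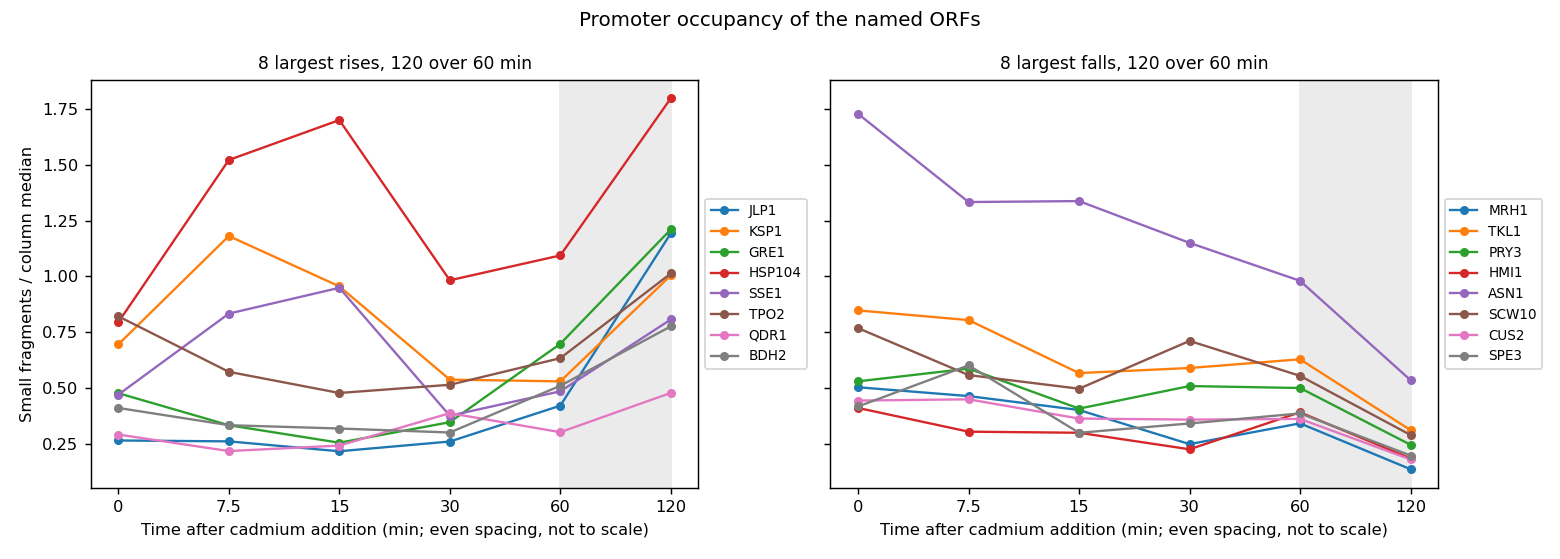
Small fragments per promoter divided by the column median (y axis) at 0 to 120 min (x axis, even spacing) for the 8 largest rises (left) and the 8 largest falls (right) among promoters with a mean of at least 50 fragments, with the last step shaded and 1 column per time point. HSP104, SSE1 and KSP1 have an early peak and a late rise, JLP1 and GRE1 have their highest values at 60 and 120 min, and ASN1 starts highest of the falling promoters.

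The other promoter rises were led by JLP1 and GRE1, whose RNA also passed its threshold. JLP1, which encodes a dioxygenase that releases sulfite from sulfonates (YLL057C, chromosome XII, 25756 to 26994, minus strand, R64), held 272 fragments at 120 min and 85 at 60 min. Its log2 change of 1.31 ± 0.15 was the highest of all promoters and the single one past 1. JLP1 had between 34 and 45 fragments at the 4 times up to 30 min, and its RNA was 4791 and 380 TPM at 120 and 60 min. GRE1, a hydrophilin gene of the general stress response, had 276 and 141 promoter fragments at 120 and 60 min and a log2 change of 0.72 ± 0.13. Its entropy was 7.23 at both times, close to the highest value of the whole table, 7.24.

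TPO2, a polyamine exporter gene, had 231 and 128 promoter fragments at 120 and 60 min, a log2 change of 0.60. BDH2, a putative butanediol dehydrogenase gene, had 177 and 103 fragments, and its RNA log2 change was 1.14. QDR1, a drug transporter gene, had 109 and 61 fragments with RNA at 14.0 and 13.9 TPM, so that of its 3 measures the promoter alone passed a threshold. The ribosome assembly factor gene REI1 had 114 and 65 fragments at 120 and 60 min, and its RNA stood at 23.0 and 9.87 TPM. UTP4, a subunit gene of the small-subunit processome, was at the threshold with 0.50, and so was the aldo-keto reductase gene GCY1. The other members of the 14 were MRK1, a kinase gene with a log2 change of 0.51, and the exosome subunit gene RRP4 with 0.51, both named here after their values were seen.

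Among promoters with a mean of at least 50 fragments, the 8 largest falls were those of MRH1, TKL1, PRY3, HMI1, ASN1, SCW10, CUS2 and SPE3. The first was MRH1, a plasma membrane protein gene, with 31 fragments at 120 min and 69 at 60 min and a log2 change of -0.90 ± 0.20. MRH1 RNA was 189 and 388 TPM at 120 and 60 min. TKL1, described above, came next, followed by PRY3, a cell wall protein gene, with 56 and 101 fragments, and HMI1, a mitochondrial DNA helicase gene, with 42 and 79. RNA changed by -0.46 for PRY3 and -0.11 for HMI1, both short of the threshold.

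ASN1, an asparagine synthetase gene (YPR145W, chromosome XVI, 822620 to 824338, plus strand, R64), had 261, 184, 210, 199, 198 and 122 promoter fragments from 0 to 120 min. Its last value was the lowest, and the log2 change against the 60 min column was -0.77 ± 0.14. SCW10, a gene of a cell wall glucanase family, had 66 fragments at 120 min and 112 at 60 min and an RNA change of -1.21. The splicing factor gene CUS2 and the spermidine synthase gene SPE3 completed the 8 largest falls, with log2 changes of -0.72 and -0.71 and RNA changes of -0.16 and -0.25. Of these 8 promoters, MRH1, TKL1 and SCW10 also passed the RNA threshold.

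**Figure D3:**
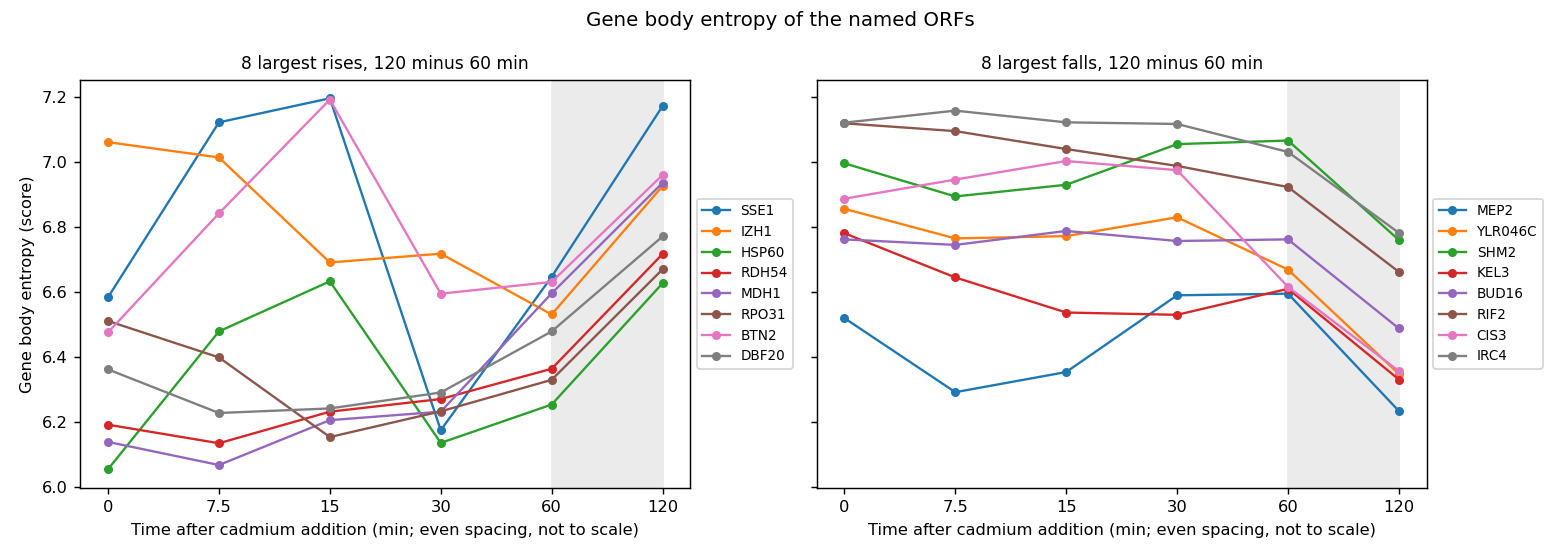
Gene body entropy score (y axis) at 0 to 120 min (x axis, even spacing) for the 8 largest rises (left) and the 8 largest falls (right) in the last step, which is shaded, with 1 column per time point. SSE1, BTN2 and HSP60 have an early and a late high, while all 8 genes of the right panel are at their lowest at 120 min.

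The 8 largest entropy rises held 3 chaperone genes and 5 genes of other roles. Beside SSE1, these were IZH1, HSP60, RDH54, MDH1, RPO31, BTN2 and DBF20. HSP60, the mitochondrial chaperonin gene (YLR259C, chromosome XII, 663284 to 665002, minus strand, R64), had an entropy of 6.05, 6.48, 6.63, 6.14, 6.25 and 6.63 from 0 to 120 min. Its promoter log2 change was -0.05 and its RNA change 0.48, so entropy alone passed its threshold. BTN2, whose product gathers misfolded proteins, had an entropy of 6.48, 6.84, 7.19, 6.59, 6.63 and 6.96 over the same times. BTN2 RNA was 803 and 163 TPM at 120 and 60 min.

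IZH1, a membrane protein gene linked to zinc balance, took another course. Its entropy was 7.06, 7.01, 6.69, 6.72, 6.53 and 6.92 from 0 to 120 min, and its RNA was 299, 17.1 and 29.5 TPM at 0, 60 and 120 min. Gene body order was thus highest at 60 min, when RNA was low, and the late rise of 0.40 brought entropy back near its first value. MDH1, the mitochondrial malate dehydrogenase gene, had an entropy of 6.93 at 120 min and 6.60 at 60 min. RPO31, which encodes the largest subunit of RNA polymerase III, had 6.67 and 6.33, and the kinase gene DBF20 had 6.77 and 6.48. RNA of these 3 genes changed by 0.22, 0.14 and 0.17, all short of the threshold.

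An RNA change past 1 in an adjacent gene only was seen beside few of the entropy rises. Over the 47 ORFs with an entropy rise, 8 (17.0%) had an RNA change past 1 of their own. In 2 (4.26%) it was in an adjacent gene only, and in 37 in neither. Over all ORFs, 1.58% had it of their own and 3.52% in an adjacent gene only. The count of 2 is too small to set apart from that 3.52%. RDH54, a recombination helicase gene, had an entropy of 6.72 at 120 min and 6.36 at 60 min with an RNA change of 0.09. The small heat shock gene HSP26, looked up after these values were seen, ends 437 bp upstream on the same strand, and its RNA changed by 2.55. HSP26 is not adjacent to RDH54 in the gene table, where YBR072C-A lies between them. MDH1 lies 458 bp downstream of SRX1, the sulfiredoxin gene, whose RNA changed by 1.15. VPS62, a vacuolar sorting gene named for its position upstream of BTN2, had an entropy change of 0.26. The part of neighbouring transcription in these entropy values was not tested.

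Entropy falls were led by MEP2, an ammonium permease gene (YNL142W, chromosome XIV, 357453 to 358952, plus strand, R64). Its entropy was 6.52, 6.29, 6.35, 6.59, 6.59 and 6.23 from 0 to 120 min, and the last difference was -0.36. MEP2 RNA was 104 and 354 TPM at 120 and 60 min, and its promoter change of -0.43 did not reach the threshold. CIS3, a cell wall protein gene, had an entropy of 6.36 at 120 min and 6.62 at 60 min. Its RNA stood at 49.8 TPM at 120 min, against 224 TPM at 60 min, and this change of -2.15 was the lowest of all ORFs in the chromatin tables.

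The other 6 of the largest entropy falls had RNA changes between -0.48 and 0.10. SHM2, a serine hydroxymethyltransferase gene of one-carbon metabolism, had an entropy of 6.76 at 120 min and 7.07 at 60 min. RIF2, a telomere-length protein gene, had 6.66 and 6.92, and YLR046C, an ORF without a gene name, had 6.35 and 6.67. KEL3, BUD16 and IRC4 had differences of -0.28, -0.27 and -0.25. For these 6 genes the gene body became more regular while promoter and RNA stayed short of their thresholds.

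The heat shock list, 30 textbook genes of which 24 were in the chromatin tables, had the highest counts of rises of the 24 lists examined. Its promoters were higher in 3 of 24 genes and lower in 0, with a median log2 change of 0.11, against -0.02 for all ORFs. Entropy was higher in 6 (SSE1, HSP60, BTN2, HSP104, HSP82 and the Hsp70 exchange factor gene FES1) and lower in 0, with a median difference of 0.089, against -0.007. RNA was higher in 12 and lower in 0, with a median of 1.01, against -0.07. The shares that were higher over all ORFs of the chromatin tables were 0.316% for promoters, 1.06% for entropy and 0.837% for RNA. SSA1, SSA2, SSA3, HSP10, SSE2 and HCH1 were not in the chromatin tables.

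Members differed within the heat shock list. Promoter changes ran to -0.18 for the Hsp90 cochaperone gene CDC37, and entropy changes to -0.19 for the J-protein gene APJ1, although RNA of APJ1 changed by 1.26. The Hsp70 gene SSA4 had the highest RNA change of the 24, 2.57, with a promoter change of 0.39 ± 0.19 and an entropy change of 0.15. HSF1, the gene of the heat shock factor, had -0.09 at the promoter, 0.04 in entropy and 0.21 in RNA. CDC37, APJ1, SSA4 and HSF1 were named here after their values were seen.

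The late rise of the heat shock genes was smaller than their first response. In the 5 steps from 0 to 120 min, the list's median promoter change was 0.41, 0.07, -0.25, 0.08 and 0.11, and its median entropy change 0.25, 0.07, -0.26, 0.12 and 0.09. Promoters were higher in 10, 3, 0, 2 and 3 genes over these steps, and lower in 9 genes in the step from 15 to 30 min alone. Entropy was higher in 15, 4, 0, 7 and 6 genes, and lower in 15 in that same step. Among all ORFs, 2.62%, 1.6%, 1.47%, 1.56% and 0.316% of promoters were higher in the 5 steps. For gene bodies these shares were 1.81%, 2.91%, 2.26%, 1.65% and 1.06%. From 15 to 30 min, 1.47% of all promoters and 0.994% of all gene bodies were lower. Members past a threshold thus went up first, down between 15 and 30 min, and up again in both later steps.

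**Figure D4:**
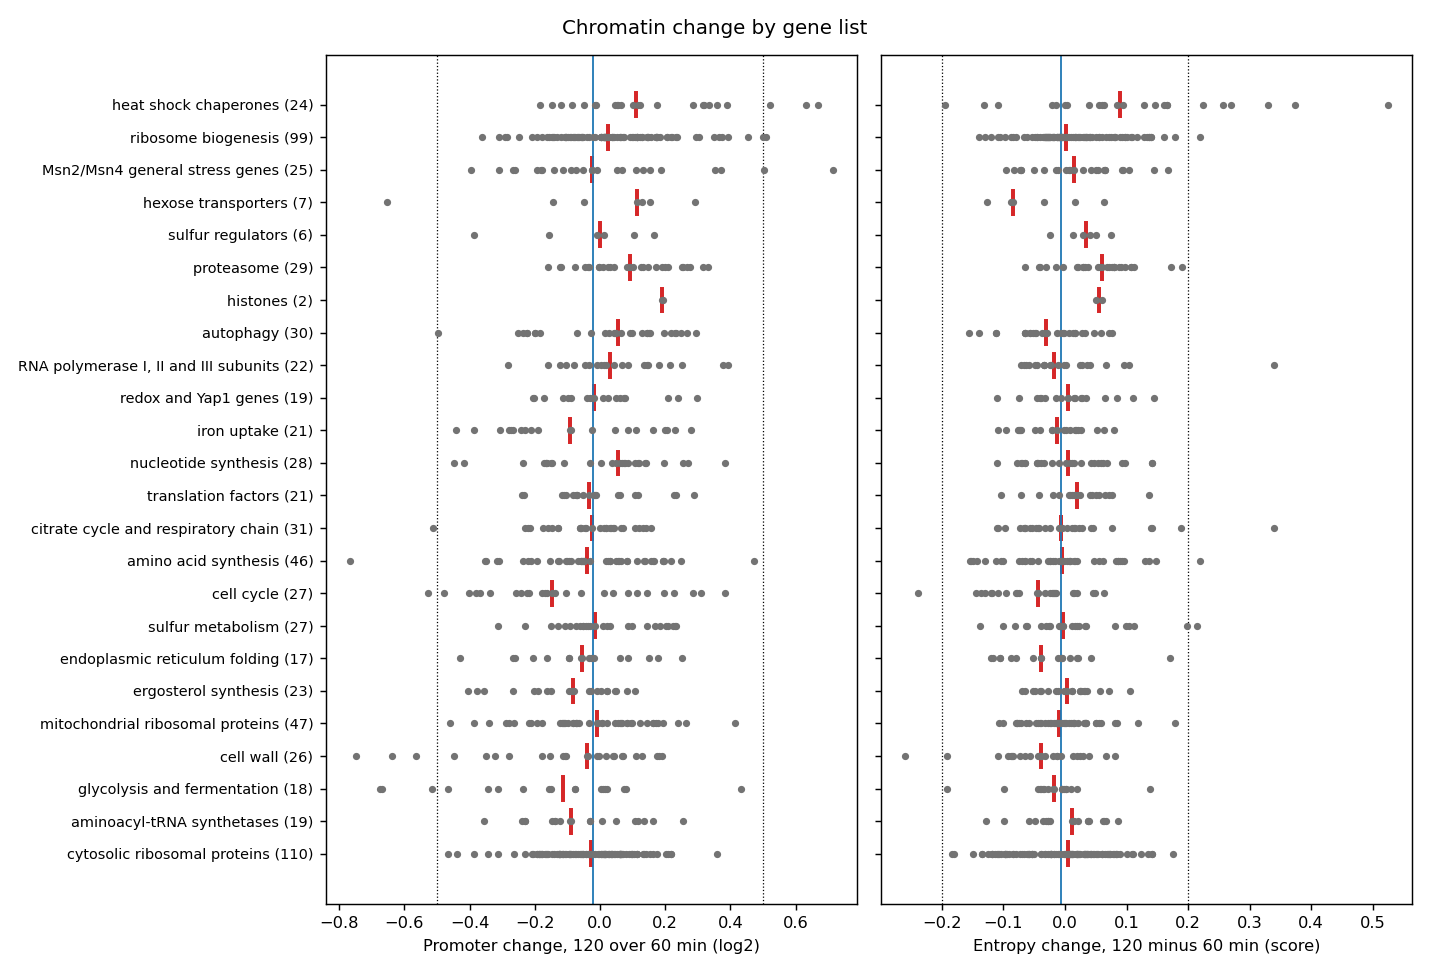
Promoter change (left, log2) and entropy change (right, difference in the score), 120 over 60 min, for the members of 24 gene lists, 1 dot per gene, with the list median as a red bar, the median of all ORFs as a blue line and dotted lines at the thresholds. The heat shock list has a median of 0.11 and 0.089 and holds the dots of SSE1, HSP104 and HSP82 at the right, while the glycolysis list has TDH2, PDC1 and CDC19 at the left of the promoter panel.

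In the glycolysis and fermentation list, TDH2, PDC1 and CDC19 fell at the promoter. They were 3 of 18 members in the tables, against 1.29% lower over all ORFs, and 0 were higher. At the promoter 7 of 18 members were above 0, in entropy 5 of 18, and 0 passed the entropy threshold, with PGI1, a gene of glucose phosphate isomerase, nearest to it at -0.19. TDH2, a gene of glyceraldehyde phosphate dehydrogenase, had 166 and 247 promoter fragments at 120 and 60 min and a log2 change of -0.68 ± 0.13. PDC1, the main pyruvate decarboxylase gene, had 132 and 198 fragments, and the pyruvate kinase gene CDC19 had 69 and 96, a change within 3 counting errors of 0. RNA changed by -1.25 for TDH2, -1.30 for PDC1 and -0.71 for CDC19. The list's median promoter change was -0.11. TDH1, an isozyme named here after its values were seen, went the other way with 0.43 at the promoter and 0.97 in RNA, both short of the thresholds. Reads of TDH1, TDH2 and TDH3 can be shared, and how they were assigned is not stated. HXT1, the low-affinity glucose transporter gene, had 156 and 229 promoter fragments at 120 and 60 min and a log2 change of -0.65 ± 0.13. HXT1 belongs to the separate hexose transporter list, where 1 of 7 promoters was lower and 0 were higher. That list's median promoter change was 0.11, with 4 of 7 members above 0.

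In the cell wall list, 0 of 26 promoters were higher and 3 lower, against 1.29% lower over all ORFs. The 3 were those of SCW10, of the chitin synthase gene CHS2, with 44 and 72 fragments at 120 and 60 min, and of PIR1, a wall protein gene, with 46 and 70. Entropy was lower in CIS3 alone and higher in 0, against 0.497% lower and 1.06% higher over all ORFs. In the cell cycle list, 1 of 27 promoters was lower, a count too small to set apart from the 1.29% over all ORFs. It was that of the mitotic cyclin gene CLB2, with 22 and 37 fragments and a log2 change of -0.53 ± 0.22, and the list's median was -0.15. In entropy, 1 of 27 gene bodies of the cell cycle list was lower and 0 were higher, a count too small to set apart from these shares. It was that of the replicative helicase gene MCM7, with an entropy of 6.22 at 120 min and 6.46 at 60 min. The promoter changes of PIR1 and CLB2 were within 3 counting errors of 0.

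Growth genes had shifted RNA medians and few chromatin changes. The 110 cytosolic ribosomal protein genes had a median RNA change of -0.58, with 0 promoters and 0 gene bodies past a threshold and medians of -0.03 and 0.005. The 99 ribosome biogenesis genes had a median RNA change of 0.46, and 3 of them were higher in RNA. Among these 99, 2 promoters, REI1 and UTP4, and 1 gene body, that of the 60S assembly gene BRX1, were higher, and 0 were lower. Both of these promoter changes were within 3 counting errors of 0. The shares that were higher over all ORFs of the chromatin tables were 0.316% for promoters, 1.06% for gene bodies and 0.837% for RNA.

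Proteasome genes leaned upward without passing a threshold. Of 29 members, 20 had a promoter change above 0 and 23 an entropy change above 0, with medians of 0.09 and 0.060, and 0 passed either threshold. Over all 4427 ORFs, 2022 had a promoter change and 2002 an entropy change above 0. PRE4, a gene of the 20S core, had 175 promoter fragments at 120 min and 119 at 60 min, and entropy of RPN1, a gene of the 19S base, was 6.76 and 6.57. The Msn2/Msn4 general stress list had 2 of 25 promoters higher, GRE1 and GCY1, 0 gene bodies past the threshold and a median promoter change of -0.03. The share of higher promoters over all ORFs was 0.316%.

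RNA and chromatin were then set side by side across ORFs. The RNA threshold was an absolute change of 1 on the log2(TPM + 1) scale, taken over ORFs whose 6 values averaged 1 TPM or more, and 88 of 5965 ORFs (1.48%) were higher and 46 (0.771%) lower. After the TPM columns were rescaled by their median ratio, 113 were higher and 29 lower. Of the 4423 such ORFs in the chromatin tables, 37 (0.837%) were higher and 33 (0.746%) lower in RNA.

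ORFs with higher RNA at 120 min mostly had more promoter fragments and higher entropy. Among the 37, 28 had a promoter change above 0 and 28 an entropy change above 0, with medians of 0.17 and 0.104. Over all 4423 ORFs, 45.7% and 45.3% were above 0. In 7 of the 37 the promoter and in 8 the gene body passed the threshold upward, and in 0 downward. Among the 33 with lower RNA, 7 promoter and 9 entropy changes were above 0. In these 33, 9 promoters and 4 gene bodies passed the threshold downward and 0 upward, with medians of -0.22 and -0.039. Of all promoters and gene bodies, 0.316% and 1.06% passed upward, and 1.29% and 0.497% downward. The 4353 ORFs between these RNA limits had medians of -0.02 and -0.007.

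**Figure D5:**
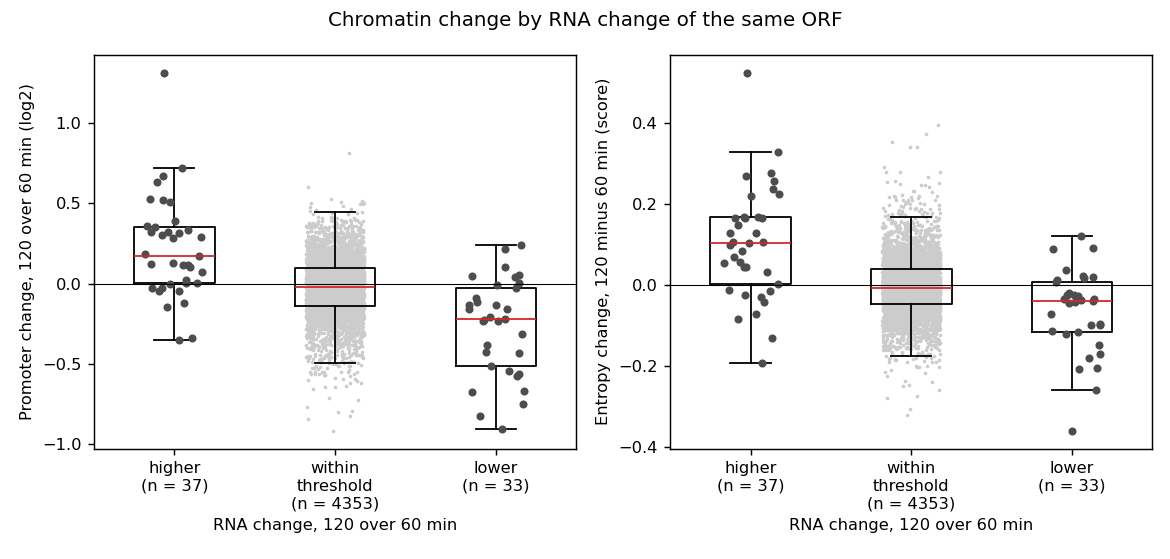
Promoter change (left, log2) and entropy change (right, difference in the score), 120 over 60 min, of ORFs grouped by their RNA change: past 1 upward (n = 37), within 1 (n = 4353) and past 1 downward (n = 33), with the median and quartiles as boxes and whiskers to the last point within 1.5 interquartile ranges. The medians of the RNA-higher group, 0.17 and 0.104, lie above those of the RNA-lower group, -0.22 and -0.039, and the ranges overlap.

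Read the other way, most chromatin changes had no RNA change of that size beside them. Of the 14 ORFs with a promoter rise, 7 had higher RNA, and their median RNA change was 1.01. Of the 57 with a promoter fall, 9 had lower RNA, with a median of -0.36. Of the 47 with an entropy rise and the 22 with an entropy fall, 8 and 4 had an RNA change past 1 in the same direction. Over all 4427 ORFs, 1.58% had an RNA change past 1 of their own.

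Across ORFs, promoter and RNA change had a Spearman correlation of 0.170 (n = 4423), and entropy and RNA change one of 0.221. Without the heat shock list these were 0.165 and 0.217. Promoter and entropy change, which come from the same MNase libraries, had a correlation of -0.005 (n = 4427). ORFs are not independent replicates, and these values describe the deposited columns.

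Promoters past the threshold were unevenly spread over the values before cadmium. Of the 57, 36 were in the highest quartile of gene body entropy at 0 min, above 6.81, and 3 in the lowest, and 34 were in the lowest quartile of promoter fragments at 0 min, with at most 92. The 14 that rose lay in the same part of that range, with 8, 6, 0 and 0 from the lowest to the highest quartile of fragments. Few fragments also mean a larger counting error, and the part of depth in these counts was not tested. Entropy rises ran the other way, with 18, 14, 8 and 7 of the 47 from the lowest to the highest quartile of entropy at 0 min. The highest entropy in the table was 7.235, and whether the score has an upper limit is not stated. From a value close to 7.235, a rise of 0.2 would pass the highest value observed. This held for the 355 ORFs whose entropy was at least 7.1 at 60 min, GRE1 among them. Their count of 0 entropy rises follows from no value being above 7.235 and says nothing more about these ORFs. The part of a possible upper limit in the spread of entropy rises over the quartiles was not tested.

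Promoter changes of neighbouring genes were most alike where the genes share an upstream region. For divergent pairs with at most 300 bp between the 2 genes, the promoter changes of the 2 members had a Spearman correlation of 0.865 (n = 238 pairs), against 0.491 (n = 317) from there up to 600 bp, 0.167 (n = 367) beyond that, and -0.013 (n = 1606) for tandem neighbours. The promoter window is not stated, so fragments of a close pair may be counted for both genes. Both members fell in 2 divergent pairs, TRS20 with MTC4 and ESP1 with TEL2. For entropy the same 4 correlations were 0.165, 0.146, -0.028 and 0.032. Within 30 kb of the first or last gene of a chromosome, 1 of 159 promoters was higher and 1 lower. The shares over all ORFs were 0.316% and 1.29%. In entropy 0 of these gene bodies were higher and 1 was lower, against 1.06% and 0.497%. Counts this small cannot be set apart from the shares over all ORFs.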

How the data were processed

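The authors deposited 3 tables with 1 column for each of 6 time points. Promoter values are deposited whole-number counts of small MNase fragments per ORF. Entropy values are a deposited score of gene body disorder. RNA values are deposited TPM. The builds sacCer3 and R64 and the aligner Bowtie 0.12.7 are named in the submitters' processing notes, while the formula of the entropy score, the windows counted as promoter and gene body, the size range of small fragments and strand use are not given in the sources used here. Columns were mapped to time points by their names, and whether replicates were pooled is not stated, so no test across replicates was run.

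Promoter columns were divided by their median, 0.1 was added and log2 was taken, with counting errors from Poisson variance. Entropy was subtracted. RNA was compared as log2(TPM + 1) for ORFs averaging 1 TPM or more. Deeper columns have smaller counting error. The promoter change with its counting error and the entropy difference were run on simulated data with known changes. For RNA the simulated columns held no change, so the recovery of an RNA change was not tested. The lists, neighbours, correlations and quartiles were not run on simulated data. Gene positions for 4425 of 4427 ORFs came from a RefSeq table of R64. Python 3.11.15, pandas 2.3.3, numpy 2.4.6 and scipy 1.17.1 were used.

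Genes were named as the 8 largest rises and falls in each measure (promoters with a mean of at least 50 fragments), ORFs past both thresholds, the 2 largest changes per list and measure, and neighbours of these. The comparison, the 24 lists and the thresholds were chosen with earlier results of these data known. Motif searches in promoters were not run, since no promoter sequence was used here. Alternatives were other pseudocounts, scalings, thresholds and filters.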

Additional observations from a re-analysis of the deposited data

How the results depend on the processing

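The count of promoters past the threshold, 71, was 143 with 0.02 in place of 0.1 added, 8 with 0.4 added, 120 with the columns as deposited, 1 with a threshold of 1 and 46 when a change also had to pass 3 counting errors, a condition chosen after seeing the data. Dividing by the column total gave 72, and a minimum mean of 50 fragments gave 61. Adding 0.4 shrinks the change of thinly covered promoters by construction: of 17 promoters named as largest changes or past both thresholds, 6 stayed past the threshold (JLP1, KSP1, GRE1, HSP104, TKL1 and ASN1), and all 17 did under the other 3 scalings and pseudocounts. The entropy count, 69, was 646 at a threshold of 0.1, with 308 higher and 338 lower, so that rises no longer outnumbered falls. At a threshold of 0.3 it was 10, with 7 higher and 3 lower. It was 68 after subtracting the median difference or quantile normalization. The 20 named entropy genes stayed on their side of the threshold under both of these. The RNA count, 134, was 89 with 5 TPM added and between 138 and 174 under the other 3 alternatives. As Pearson correlations, the relation with RNA was 0.232 for promoters and 0.269 for entropy. List medians relative to all ORFs changed sign in 2 of 24 lists with promoter columns as deposited and in 1 of 24 with quantile-normalized entropy. None of these 17 and 20 genes changed sign under these alternatives. No paired analysis was possible because the columns carry no replicate number, and for the same reason no replicate could be left out. Depth limits the least covered promoters most, with a root mean square counting error of 0.174 in the lowest quartile of fragments at 0 min and 0.104 in the highest.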

Other observations

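Of the 27 genes of the sulfur metabolism list in the tables, which does not hold JLP1, 0 promoters passed the threshold. In entropy 1 gene body was higher, against 1.06% over all ORFs, and the list's median RNA change was -0.30. That gene body was HOM3, the aspartate kinase gene, with an entropy of 6.82 at 120 min and 6.61 at 60 min and RNA of 369 and 257 TPM. SAH1, the gene of S-adenosylhomocysteine hydrolase, had an entropy of 6.80 and 6.61 at these times with RNA at 146 and 256 TPM, so its entropy difference of 0.198, just short of the threshold, and its RNA difference had opposite signs. CYS3, a cystathionine lyase gene, had 608 and 455 promoter fragments at 120 and 60 min and a log2 change of 0.23 ± 0.09 (counting error). The regulator genes MET31 and MET32 had promoter changes of -0.39 ± 0.18 and 0.16 ± 0.10.

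The histone list had 2 of its 11 genes in the chromatin tables. The linker histone gene HHO1 had 323 and 248 promoter fragments at 120 and 60 min, and CSE4, the gene of the centromeric histone, had 239 and 183, with log2 changes of 0.19 for both and entropy changes of 0.06 and 0.05. Neither passed a threshold.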
